A study of Mus musculus with 7 samples.

Results

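The genes described here are the kisspeptin, neurokinin B and reproductive axis genes of the mouse hypothalamus: the ligand genes Kiss1, Tac2, Pdyn and Gnrh1, the receptor genes Kiss1r, Tacr3 and Oprk1, and the sex steroid receptor genes Esr1 and Pgr. They were chosen by name. Every probe set that the array's annotation assigns to 1 symbol only, that symbol being among these 9, was taken, which gave 14 of the 45037 probe sets tested and 7 of 18193 genes. Esr1, Pgr and Tacr3 had 3 probe sets each, Oprk1 had 2, and Kiss1r, Tac2 and Pdyn had 1. No probe set carried Kiss1 or Gnrh1 as its only symbol in the annotation used here, so these genes were not analysed here.

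Hypothalami of 3-month-old mice were profiled on 7 Affymetrix mouse430_2 arrays, 1 array per sample. The 4 control arrays are labelled wild type, and the labels do not say whether those mice carried a floxed Creb allele or Cre. The 3 others are labelled Creb-PomcCre-/-, mice in which Creb was deleted by Cre recombinase driven by Pomc, and are called knockout below. The study compared both groups for genes downstream of CREB in the arcuate neurons that control appetite. Each array reads the whole hypothalamus, of which Pomc neurons make up little. Replicates are biological per the labels, which do not say how many mice went into a sample.

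Kisspeptin, neurokinin B and dynorphin are made together by a group of arcuate neurons that drive the pulses of gonadotropin-releasing hormone. In the accepted scheme neurokinin B starts each pulse through Tacr3, dynorphin ends it through the kappa opioid receptor Oprk1, and kisspeptin carries the signal to Gnrh1 neurons through Kiss1r. Estradiol acts on these neurons through the receptor encoded by Esr1, which also raises Pgr, the progesterone receptor gene. Some arcuate kisspeptin neurons descend from cells that expressed Pomc during development. Pdyn, Tac2 and Tacr3 are also transcribed in other regions, among them magnocellular neurons and striatum for Pdyn and the habenula for Tac2.

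CREB binds the cyclic AMP response element TGACGTCA and its shorter core TGACG, so the promoters of the members were searched for both on either strand. The RefSeq promoter table (build GRCm38.p6, 250 bases before to 50 after a start) held 9 promoters of 7 members: 2 of Esr1, 2 of Pdyn and 1 each of Kiss1, Kiss1r, Tac2, Tacr3 and Pgr. None held the full element, which 1.79% of all 32851 promoters in the table hold. The core, which 20.8% of them hold and which every full element contains, was found in the promoters of Tacr3, Kiss1r and Kiss1. The palindromic estrogen response element, held by 0.070% of promoters, was not found. The windows around the cores are printed because they are the only letters of these promoters that match the factor deleted here. Capitals mark the core, and positions count back from -1, the base before the annotated start.
Tacr3: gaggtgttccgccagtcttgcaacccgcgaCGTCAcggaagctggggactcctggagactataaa
Kiss1r: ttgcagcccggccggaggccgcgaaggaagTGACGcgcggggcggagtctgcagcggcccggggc
Kiss1: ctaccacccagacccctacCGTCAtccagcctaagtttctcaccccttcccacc
The Tacr3 window lies at chr3:134828919-134828983 on the plus strand, with the core at -58 to -54 in reverse orientation. The Kiss1r window lies at chr10:79916900-79916964 on the plus strand, with the core at -41 to -37 in forward orientation. The Kiss1 window lies at chr1:133326962-133327015 on the plus strand, with the core at -231 to -227 in reverse orientation. A match of letters is not a bound site.

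All values are the authors' deposited log2 expression values, and each difference is knockout minus wild type on that scale. Differences were tested with limma over all probe sets, their p-values adjusted by Benjamini-Hochberg, and an adjusted p under 0.05 counted as passing. Array medians lay between 6.20 and 6.24. The lower quartiles were 4.456 to 4.489 in wild type and 4.492 to 4.499 in the knockout. The upper quartiles were 8.345 to 8.361 and 8.328 to 8.333, so the knockout arrays had a slightly narrower spread. The table used here holds no detection call. The mean level of 4 of the 14 lay below the median of all probe sets: the dimmest of Tacr3, Oprk1, Esr1 and Pgr. Wild-type arrays 2 and 3 stood apart in meninges markers: the median deviation of 12 such markers was 0.44 and 1.10 on them and -0.42 to -0.31 on the other 5. In bulk tissue, fewer cells of a type and less RNA per cell cannot be told apart. The label of the tissue was borne out by its own genes, with Oxt at 12.55, Avp at 12.28 and Pomc at 9.76 on average over the 7 arrays. Of the pituitary genes, Fshb at 3.25 and Gnrhr at 4.47 lay below the array medians, while Cga, the shared subunit of pituitary glycoprotein hormones, lay above them at 8.77, from 6.91 to 10.11 over the arrays. Creb1, the deleted gene, has 6 probe sets, with differences from -0.11 to 0.18, and Pomc has 2, at 0.21 and 0.22, and none of these passed. Probe sets outside the deleted exons would not read the deletion.

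None of the 14 member probe sets passed the threshold, against 3 of all 45037 (0.00666%). At an unadjusted p under 0.05 there were 3, namely 2 of Tacr3 and that of Pdyn, all higher in the knockout, where 10.6% of all probe sets reached that level. The groups were fully apart for 1 of the 14, a Tacr3 probe set with the knockout above. Over all probe sets this was so for 11%, with the knockout above in 6.02% and below in 5.02%. By sign, 8 were higher and 6 lower (median 0.040), beside 53.2% higher and a median of 0.0084 over all probe sets. The median size of the difference was 0.071, the same as over all probe sets (0.071). The members together were thus no further apart between the genotypes than the array at large, and what follows is about single genes.

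**Figure D1:**
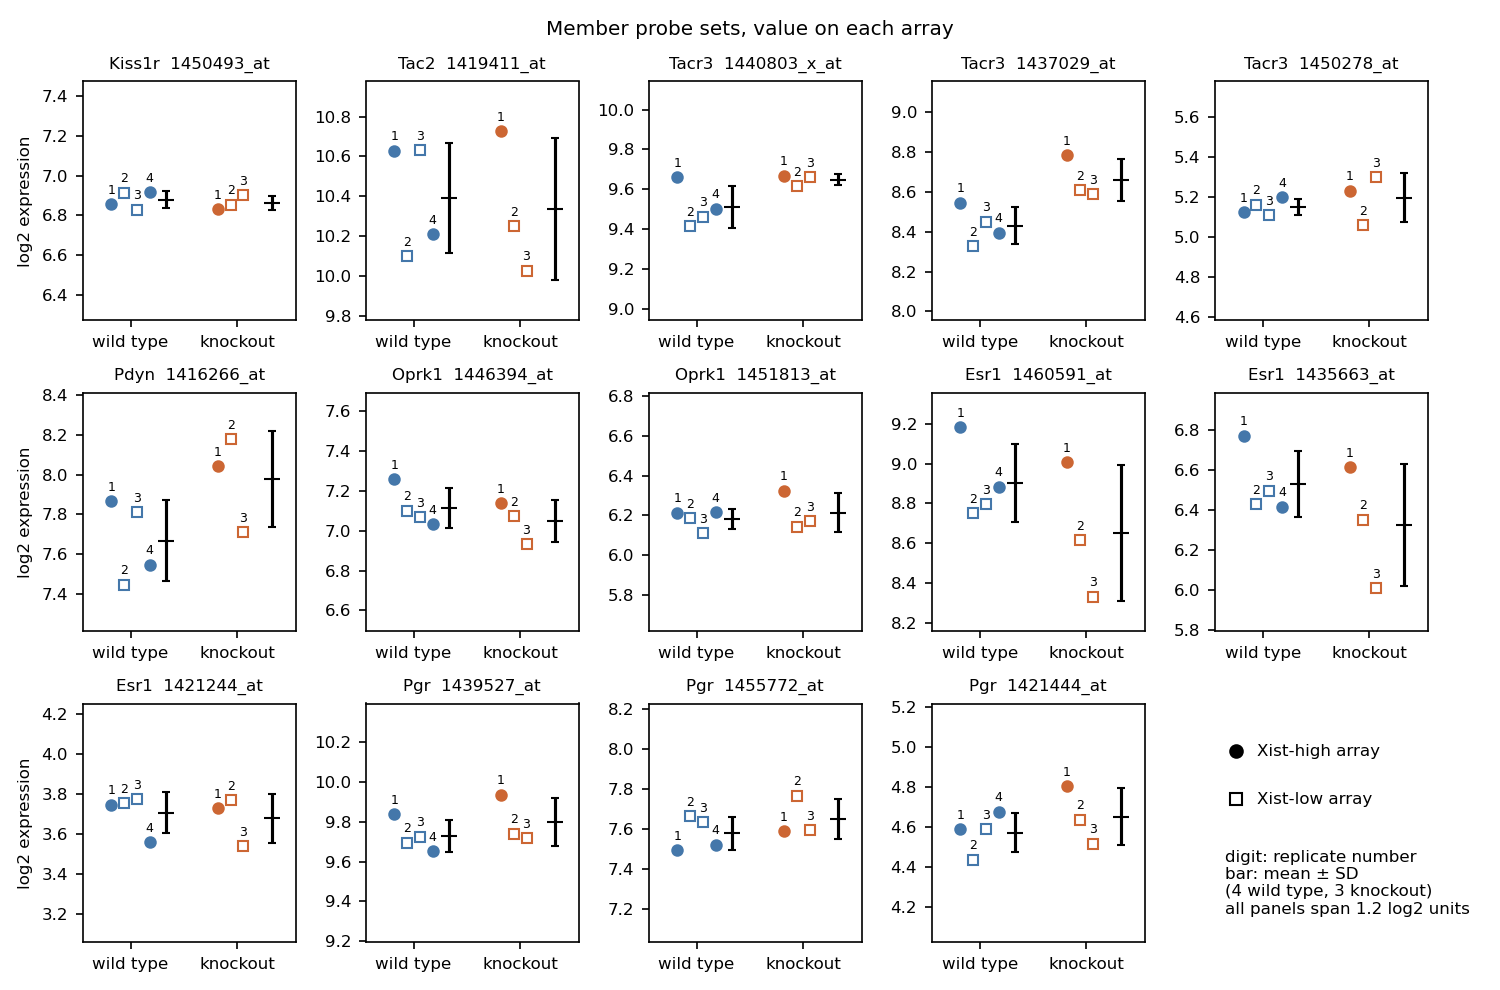
Log2 expression of the 14 member probe sets on each array (y axis, every panel spanning 1.2 log2 units) in wild type (blue, n = 4) and knockout (orange, n = 3), with mean ± SD beside the points and the replicate number above each. Filled circles are arrays high in Xist and open squares arrays low in it; the 3 knockout values of Tacr3 1437029_at, from 8.59 to 8.78, lie above all wild-type values, which end at 8.55.

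Tac2 encodes the precursor of neurokinin B, the ligand that starts a pulse. Its probe set read 10.63, 10.10, 10.63 and 10.21 in the wild-type arrays and 10.73, 10.25 and 10.03 in the knockout arrays. Each genotype therefore held both high and low arrays, and the knockout contained the highest and the lowest of all 7. The means were 10.39 ± 0.28 (SD, n = 4) and 10.33 ± 0.36 (SD, n = 3). They differed by -0.057 ± 0.18 (SE), short of the threshold (limma, adjusted p = 0.932). Its 95% confidence interval, -0.46 to 0.35, still allows a fold between 0.725 and 1.27. The difference was 0.097 with knockout array 3 left out and -0.25 with knockout array 1 left out. Tac2 had the widest spread of the 7 genes, with an SD of 0.29 over all arrays, larger than that of 96.3% of all probe sets.

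Pdyn encodes prodynorphin, the precursor of the opioid that ends a pulse. It read 7.87, 7.45, 7.81 and 7.55 in wild type and 8.04, 8.18 and 7.71 in the knockout. Knockout arrays 1 and 2 lay above every wild-type array, and knockout array 3 lay below wild-type arrays 1 and 3. The means were 7.67 ± 0.20 (SD, n = 4) and 7.98 ± 0.24 (SD, n = 3). The difference of 0.31 ± 0.13 (SE), or 1.24-fold, was the largest among the members by size, and limma did not call it (adjusted p = 0.461). Leaving out knockout array 3 gave 0.44, leaving out knockout array 2 gave 0.21, and neither passed.

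Tacr3 encodes the neurokinin B receptor. Its probe set 1437029_at read 8.55, 8.33, 8.45 and 8.40 in wild type and 8.78, 8.61 and 8.59 in the knockout. Every knockout array was therefore higher than every wild-type array. The means were 8.43 ± 0.093 (SD, n = 4) and 8.66 ± 0.11 (SD, n = 3). The difference was 0.23 ± 0.072 (SE), or 1.17-fold, short of the threshold (limma, adjusted p = 0.354), and its p ranked 1302 among all probe sets. The brightest Tacr3 probe set, 1440803_x_at, read 9.66, 9.42, 9.46 and 9.50 in wild type and 9.67, 9.62 and 9.66 in the knockout. The knockout arrays were close together here, and wild-type array 1 stood at their level, so that the groups overlapped. The difference was 0.14 ± 0.061 (SE) (limma, adjusted p = 0.467). The dimmest Tacr3 probe set, 1450278_at, ran from 5.11 to 5.20 in wild type and from 5.06 to 5.30 in the knockout and differed by 0.049 ± 0.079 (SE). The brighter pair of Tacr3 probe sets thus differed in the same direction, and 1 of this pair separated the groups.

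Oprk1, the dynorphin receptor gene, and Kiss1r, the kisspeptin receptor gene, had groups that overlapped at every probe set. Oprk1 probe set 1446394_at read 7.26, 7.10, 7.07 and 7.03 in wild type and 7.14, 7.07 and 6.93 in the knockout. The groups overlapped, and they differed by -0.068 ± 0.080 (SE) (limma, adjusted p = 0.789). The dimmer Oprk1 probe set 1451813_at ran from 6.11 to 6.22 in wild type and from 6.14 to 6.32 in the knockout and differed by 0.031 ± 0.074 (SE), the other way. Without knockout array 3 the former was at -0.0097, and without knockout array 1 the latter was at -0.025. Kiss1r read 6.86, 6.91, 6.83 and 6.92 in wild type and 6.83, 6.85 and 6.90 in the knockout. Its difference was -0.017 ± 0.061 (SE) (limma, adjusted p = 0.941), with a 95% confidence interval of 0.898-fold to 1.09-fold. Kiss1r was the steadiest member, with an SD over arrays of 0.038 that exceeds that of 2.84% of all probe sets.

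Esr1 encodes estrogen receptor alpha. Its brightest probe set, 1460591_at, read 9.18, 8.75, 8.80 and 8.88 in wild type and 9.01, 8.61 and 8.33 in the knockout. Knockout arrays 2 and 3 lay below every wild-type array, and knockout array 1 lay above all but wild-type array 1. The means were 8.90 ± 0.19 (SD, n = 4) and 8.65 ± 0.34 (SD, n = 3), with a difference of -0.25 ± 0.15 (SE) (limma, adjusted p = 0.582). Probe set 1435663_at had the same order at its ends, with 6.77, 6.43, 6.50 and 6.42 in wild type against 6.61, 6.35 and 6.01 in the knockout, and differed by -0.21 ± 0.14 (SE). Both give the highest value in wild-type array 1 and the lowest in knockout array 3. The third, 1421244_at, ran from 3.54 to 3.77 over all arrays and differed by -0.029 ± 0.082 (SE). The 1460591_at difference was -0.093 with knockout array 3 left out and -0.43 with knockout array 1 left out, and that of 1435663_at was -0.047 and -0.35.

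Pgr, the progesterone receptor gene that estradiol is known to raise, did not follow Esr1 in sign. Probe set 1439527_at read 9.84, 9.70, 9.73 and 9.65 in wild type and 9.93, 9.74 and 9.72 in the knockout. Wild-type array 1 and knockout array 1 were the highest of their groups, as they were for Esr1 1460591_at. The means were 9.73 ± 0.079 (SD, n = 4) and 9.80 ± 0.12 (SD, n = 3). They differed by 0.069 ± 0.066 (SE) (limma, adjusted p = 0.733). Probe sets 1455772_at and 1421444_at differed by 0.072 ± 0.073 (SE) and 0.081 ± 0.091 (SE). Without knockout array 1 the 1439527_at difference was 0.00068 and that of 1421444_at 0.0043, and without knockout array 2 that of 1455772_at was 0.014.

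**Figure D2:**
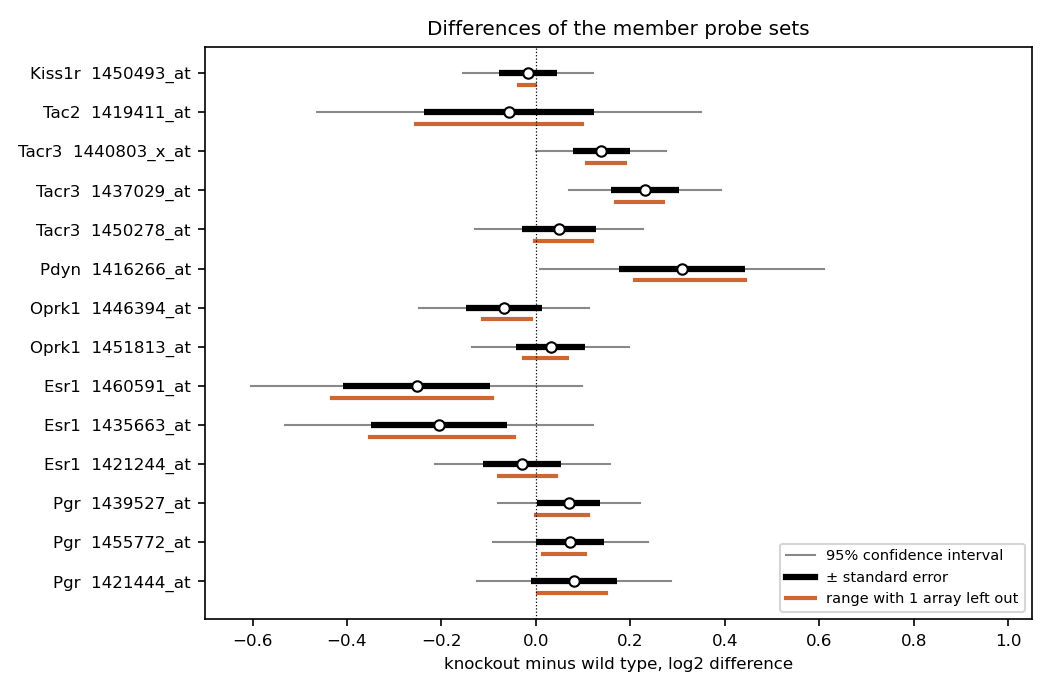
Knockout minus wild type log2 differences of the 14 member probe sets (x axis), as points with the standard error (thick black), the 95% confidence interval (grey) and, below, the range over fits with 1 array left out (orange). The intervals of Pdyn (0.0085 to 0.61), Tacr3 1437029_at (0.069 to 0.39) and Tacr3 1440803_x_at (0.00082 to 0.28) lie above 0 before adjustment, and no probe set passed after it.

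The labels do not give the sex of the mice, and these genes are known to differ between the sexes. The female-specific transcript Xist read 12.3 to 12.5 at its brightest probe set on wild-type arrays 1 and 4 and knockout array 1, and 5.52 to 6.37 on the other 4. The Y-linked Eif2s3y ran the opposite way at its brighter probe set, from 2.95 to 3.76 on the 3 arrays high in Xist and from 8.48 to 8.76 on the other 4. Esr1 1460591_at was 8.88 to 9.18 on the arrays high in Xist and 8.33 to 8.80 on those low in it, with no overlap. The same was so for Oprk1 1451813_at, higher where Xist was high, and for Pgr 1455772_at, lower there. That is 3 of 14 member probe sets, where 5.31% of all probe sets separate the arrays in this way. Pgr 1455772_at was parted only narrowly, at 7.49 to 7.589 against 7.595 to 7.77. The brighter Oprk1 probe set overlapped, at 7.03 to 7.26 against 6.93 to 7.10, and so did the other Esr1 and Pgr probe sets. In wild type these other Pgr probe sets had the higher mean where Xist was high, at 9.75 against 9.71 and 4.63 against 4.51. Tac2 overlapped, at 10.21 to 10.73 against 10.03 to 10.63, and so did Kiss1r, Pdyn and all Tacr3 probe sets.

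The genotypes were then set side by side among arrays of like Xist level, which leaves 1 knockout and 2 wild-type arrays high in it, and 2 of each low in it. These are values with no test. Tacr3 1437029_at differed by 0.31 in the first set and 0.21 in the second, and Pdyn by 0.34 and 0.32. Esr1 1460591_at differed by -0.026 and -0.30, and Tac2 by 0.31 and -0.23. Tacr3 and Pdyn were therefore higher in the knockout on both sides, and Esr1 and Tac2 were not alike on them. With sex as a covariate over all 7 arrays the differences were 0.25 for Tacr3 1437029_at, 0.32 for Pdyn and -0.19 for Esr1 1460591_at, and none passed (limma, adjusted p = 0.312, 0.438 and 0.518).

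Markers of hypothalamic regions and of neighbouring tissue were read on the same arrays. Of 13 measured arcuate markers 12 were higher in the knockout, with a median difference of 0.17, and of 8 ventromedial markers 7 were higher, with a median of 0.13. Nr5a1, at 0.24, is in both lists, and 51.5% of all genes had the higher mean in the knockout. The mean level of the arcuate list was 8.70 to 9.05 in wild type and 8.98 to 9.10 in the knockout, and its lowest array, wild-type array 2, also read lowest for Pdyn and for Tacr3 1437029_at and 1440803_x_at. Among 10 magnocellular markers 4 were higher (median -0.026), and of 15 habenula and thalamus markers 10 were lower (median -0.17). The habenula and thalamus list had its highest mean level, 8.40, on wild-type array 2. Next came wild-type array 4 at 7.96 and knockout array 3 at 7.90, and the rest ran from 7.49 to 7.64. The arrays high in this list gave the lowest values of Tac2 (10.10, 10.21 and 10.03), Pdyn (7.45, 7.55 and 7.71) and Pgr 1439527_at. They also gave the highest values of Kiss1r (6.91, 6.92 and 6.90). No Tacr3, Oprk1 or Esr1 probe set was split in this way. Of 12 striatum and cortex markers 5 were higher, with a median of -0.036, and of 11 preoptic markers 6, with a median of 0.025. Pituitary markers were higher for 8 of 11, with a median of 0.091, led by Tshb at 1.82 and Cga at 0.99, and markers of the meninges were lower for 10 of 12, with a median of -0.56 and their highest median deviation, 1.10, in wild type. Without wild-type arrays 2 and 3 the differences were 0.27 for Pdyn, 0.19 for Tacr3 1437029_at, 0.067 for Tacr3 1440803_x_at, -0.084 for Tac2 and -0.38 for Esr1 1460591_at, and none passed. Leaving these out keeps wild-type array 4 and knockout array 3, the next highest in the habenula and thalamus list. The part of these regions and tissues in the members' values was not tested.

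**Figure D3:**
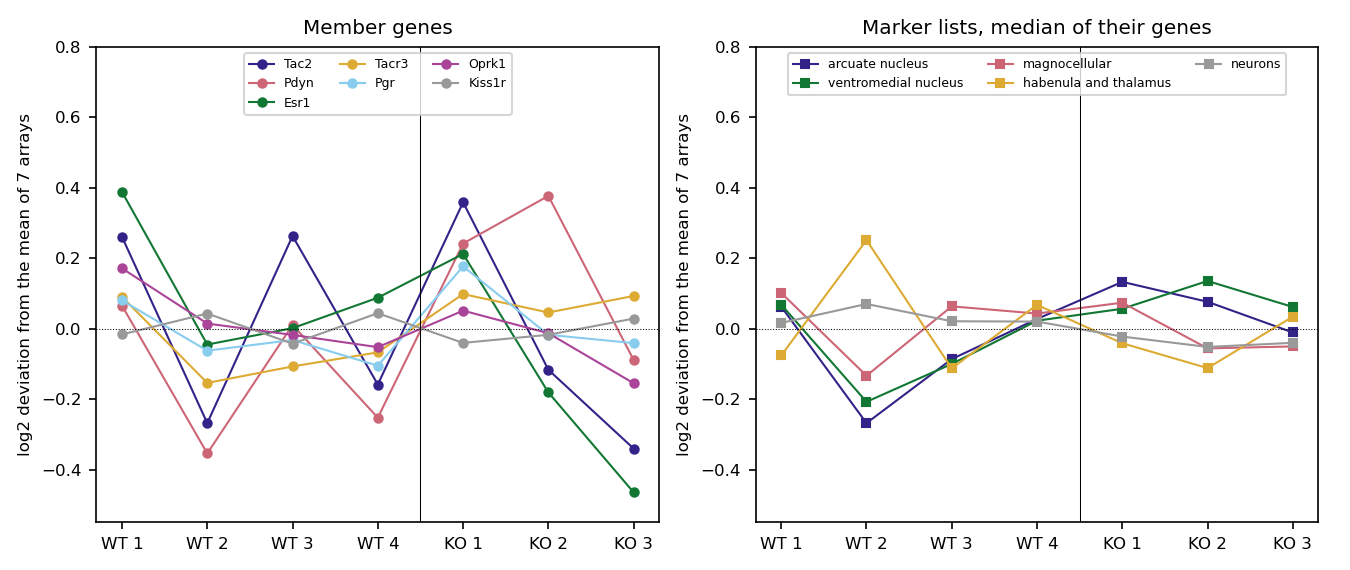
Left, deviation of each member gene's brightest probe set from its mean over the 7 arrays (y axis, log2) on each wild-type (WT) and knockout (KO) array; right, the median deviation of the genes of 5 marker lists. Tac2 and Esr1 are high on wild-type array 1 and knockout array 1 and low on knockout array 3, but on wild-type array 3 Tac2 is high and Esr1 is near its mean; Pdyn and the arcuate list share their low point at wild-type array 2.

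The 3 members with the widest spread, Tac2, Esr1 and Pdyn, were compared with 9096 genes of at least median level by Pearson correlation over the 7 arrays. This describes likeness in these arrays, which differ in genotype, Xist level and tissue markers, and high values are common by number alone. The closest to Tac2 were Slc8a3, a sodium and calcium exchanger gene, Ankrd6 and the replication gene Mcm4, with r of 0.978, 0.974 and 0.972, and 40 genes had r over 0.9. The closest to Esr1 were the deubiquitinase gene Usp47, Cant1 and the SUMO protease gene Senp5, with r of 0.989, 0.984 and 0.983, among 90 genes over 0.9. The closest to Pdyn were Hcfc2, the orexin precursor gene Hcrt and Vstm2l, with r of 0.979, 0.962 and 0.960, among 68 over 0.9. Hcrt read 12.59, 12.02, 12.36 and 12.27 in wild type and 12.73, 12.78 and 12.41 in the knockout, and, as for Pdyn, its highest arrays were knockout 2 and 1 and its lowest wild-type 2 and 4. Among the members, the brighter pair of Esr1 probe sets had r of 0.972 over the 7 arrays and the brighter pair of Tacr3 probe sets 0.862. Between genes, r passed 0.8 in size for 6 pairs of probe sets. Oprk1 1446394_at had 0.943 with Esr1 1435663_at and 0.891 with Esr1 1460591_at. Kiss1r and Tac2 had -0.863. Tacr3 1437029_at had 0.812 with both Pdyn and Pgr 1439527_at, and Tac2 had 0.803 with Esr1 1435663_at.

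In all, 8 lists of other genes of the axis were read by the brightest probe set of each gene. They held 128 measured genes in all, of which 0 passed in either direction (limma), against 2 of all 18193 genes (0.011%). An unadjusted p under 0.05 was reached by 20, 7 higher and 13 lower, or 15.6%. Of all genes 11.7% reached it, 5.6% higher and 6.12% lower, and 51.5% had the higher mean in the knockout. Their median difference was -0.011, and that of all genes was 0.0036. The groups did not overlap for 16 of these 128 genes, where this was so for 12.1% of all genes. The genes named below have the 4 smallest unadjusted p of each list, a choice that favours groups without overlap. None of them passed.

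Of 12 measured tachykinin, opioid and RFamide genes 5 were higher, 7 lower (median -0.0065, of either sign over the alternatives), and 1 had an unadjusted p under 0.05. This was Npvf, which encodes the peptide that inhibits gonadotropin-releasing hormone neurons. It read 7.25, 6.30, 7.73 and 7.56 in wild type and 8.18, 7.66 and 8.13 in the knockout. Wild-type array 2 was the lowest by far, and the difference was 0.78 ± 0.31 (SE) (limma, adjusted p = 0.387), or 0.48 without that array. The substance P precursor gene Tac1 and its receptor gene Tacr1 differed by 0.070 and 0.068, and Tac4 by -0.082. Of 10 peptide processing genes 5 were higher and 5 were lower (median -0.038), and 0 had an unadjusted p under 0.05. Pcsk1, a convertase that cuts peptide precursors, differed by 0.27 ± 0.16 (SE), the amidating enzyme gene Pam by -0.099, Furin by -0.082 and Scg5, a chaperone of the other neuroendocrine convertase, by -0.12. Without wild-type array 1 Scg5 was at -0.021, without wild-type array 2 Pcsk1 was at 0.15, and without knockout array 3 Furin was at -0.049.

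Sex steroid receptors, enzymes and cofactors numbered 18, 11 higher and 7 lower in the knockout (median 0.033). An unadjusted p under 0.05 was reached by 4 higher and 2 lower, or 33.3%. Esr2, the gene of estrogen receptor beta, read 5.07, 4.99, 4.95 and 4.98 in wild type and 5.22, 5.26 and 5.26 in the knockout. The groups did not overlap, as for 12.1% of all genes, at a level below the array medians. Its difference was 0.25 ± 0.065 (SE) (limma, adjusted p = 0.267). Gper1, a membrane estrogen receptor gene, read 6.07, 5.95, 5.94 and 6.03 in wild type and 6.24, 6.18 and 6.21 in the knockout, again without overlap, and differed by 0.21 ± 0.068 (SE) (limma, adjusted p = 0.327). The coactivator gene Ncoa2 differed by -0.15 ± 0.044 (SE), without overlap. Of its other probe sets 1 differed by -0.12 and the rest by 0.16 and 0.13. Hsd17b12, a steroid and fatty acid enzyme gene, differed by 0.13. So the minor estrogen receptor genes were read higher on every knockout array, while Esr1 was not, and none of the 3 passed. Gper1, at 6.09 on average, also lay below the array medians, whereas the Esr1 probe set compared here averaged 8.80. The lower quartile over all probe sets was higher on every knockout array too.

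Among 9 genes known to follow sex steroids, 4 were higher and 5 were lower (median -0.094), and 0 had an unadjusted p under 0.05. The nitric oxide synthase gene Nos1 differed by -0.15, the oxytocin receptor gene Oxtr by 0.17, Brs3 by 0.15 and Irs4 by -0.11. The other Nos1 probe sets were at -0.19 for the brightest of them and at 0.016 and 0.11 for dimmer ones, and that of Irs4 was at 0.062. Without wild-type array 3 Irs4 was at -0.060. The median of this list was positive, between 0.0075 and 0.092, under 5 of the alternatives, so that no direction can be given for it.

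Among 35 genes of gonadotropin-releasing hormone neuron development, 15 were higher and 20 were lower (median -0.036), and 3 had an unadjusted p under 0.05. Il17rd, an inhibitor of fibroblast growth factor signalling, differed by -0.18 without overlap, Ccdc141 by -0.21, Igsf10 by 0.17 and Plxna1, a semaphorin receptor gene, by -0.10 without overlap. The other, dimmer Il17rd probe set was at -0.00089, and Igsf10 lay far below the array medians, at 3.25 on average. Of the 5 other Ccdc141 probe sets 3 were lower, from -0.058 to -0.0071, and the rest were at 0.12 and 0.18. Without knockout array 1 Ccdc141 was at -0.12 and Igsf10 at 0.11. Among 17 puberty timing genes 9 were higher and 8 were lower (median 0.00032, of either sign over the alternatives), and 2 had an unadjusted p under 0.05. The insulin-like growth factor receptor gene Igf1r differed by -0.29 ± 0.079 (SE) without overlap (limma, adjusted p = 0.272), with its brighter other probe sets at -0.10 and -0.078 and its dimmer ones at 0.052 and 0.18. Nkx2-1, a homeodomain factor of the ventral hypothalamus, differed by 0.18 without overlap, the imprinted gene Dlk1 by -0.12 and the Polycomb gene Eed by 0.065. Single probe sets of Dlk1 and Eed had the other sign, at 0.027 and -0.15.

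Among 19 genes of the Gq and Gi signalling steps that Kiss1r, Tacr3 and Oprk1 use, 5 were higher and 14 were lower (median -0.098). An unadjusted p under 0.05 was reached by 7, or 36.8%, all lower. The Gq subunit gene Gnaq differed by -0.098 and the Go subunit gene Gnao1 by -0.12, both without overlap. The potassium channel gene Kcnj9 differed by -0.27 and the phospholipase gene Plcb1 by -0.15. The other Gnaq probe sets were at -0.19, -0.10, -0.11 and -0.058 where bright and at 0.026 and 0.11 where dim, and those of Kcnj9 were at -0.35, -0.10 and 0.15. All other probe sets of Gnao1, at 0.086 and 0.066, and of Plcb1, from 0.022 to 0.14, had the opposite sign and were dimmer. With the mean of all probe sets of each gene the list's median was 0.011, and with the most variable probe set it was 0.044, so its direction rests on the brightest probe sets. Neuron markers in general were lower too, 11 of 13, with a median of -0.066, and their median deviation was 0.017 to 0.070 on wild-type arrays and -0.052 to -0.022 on knockout arrays. Over all probe sets the upper quartile was lower, and the lower quartile higher, on every knockout array than on every wild-type array. Whether the share of neurons or this narrower spread has a part in the signalling list was not tested.

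Among 10 other genes known from kisspeptin neurons, 5 were higher and 5 were lower. Their median of 0.072 turned sign under 4 alternatives, the farthest being -0.077 without knockout array 1. The calcium channel gene Cacna1g differed by -0.33 ± 0.10 (SE) without overlap (limma, adjusted p = 0.313), and its relative Cacna1h by -0.17, with another probe set of Cacna1h at 0.051. Nhlh2, a factor needed for gonadotropin-releasing hormone neurons, differed by 0.17 and Sox14 by 0.15. Without knockout array 1 Nhlh2 was at 0.11, and without wild-type array 2 Sox14 was at 0.085.

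**Figure D4:**
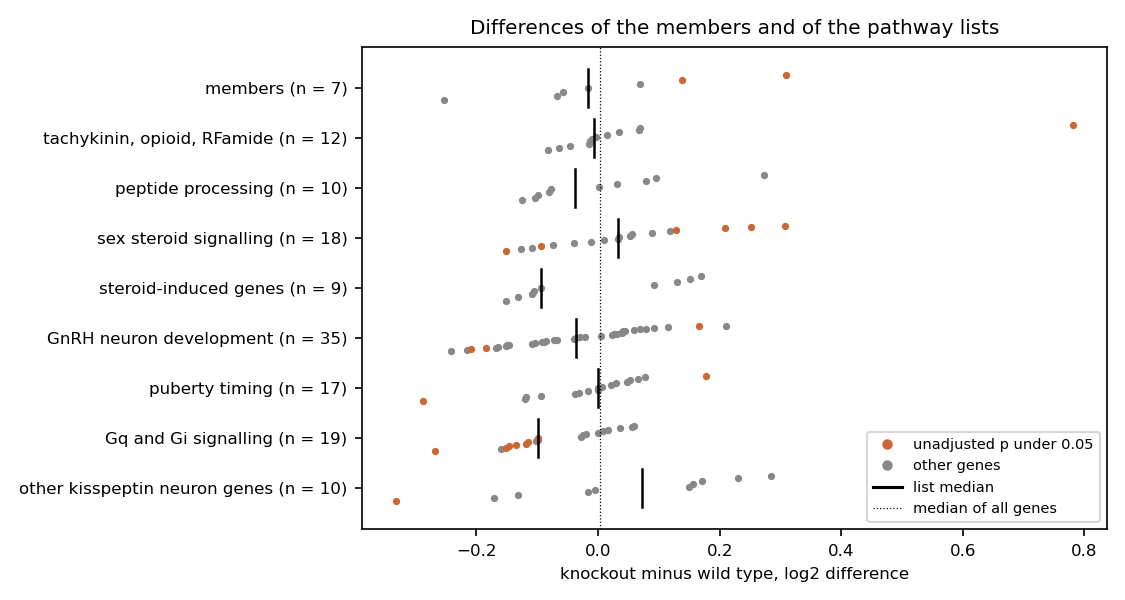
Knockout minus wild type log2 difference of each gene (x axis) for the 7 members and 8 lists of other genes of the axis, with the median of each list (black bar) and of all genes (dotted, 0.0036); orange points have an unadjusted p under 0.05. Of the signalling genes 14 of 19 lie below 0, and the farthest point on the right is Npvf at 0.78.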

How the data were processed

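The table holds the log2 expression values the authors deposited for 45101 probe sets on 7 arrays. Per the submitters' processing notes the tools were R 2.10.0, affy and RMA. RMA usually makes the intensity distributions of arrays equal, so a shift shared by all genes would not be seen. The 64 control probe sets were left out. Symbols come from the platform annotation, where 34945 probe sets carry 1 symbol, 932 several and 9160 none. Groups come from the sample titles. A gene was represented by its brightest probe set. Tests used limma 3.58.1 in R 4.3.3 (lmFit, eBayes with an intensity trend, two-sided), checked on simulated data with known changes. Standard errors and 95% confidence intervals are limma's, intervals are not adjusted, and SDs are over arrays. The number of arrays limits the precision, with a median standard error of 0.079 over all probe sets. Lists were described by counts and medians, with no set test. The members, lists and alternatives were chosen with earlier results of these data known. Named list genes are the 4 with the smallest unadjusted p in each pathway list. The 9 marker lists are given by counts, medians and levels. Plots used Python 3.11.15 and matplotlib 3.10.9.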

Additional observations from a re-analysis of the deposited data

Results flagged for a closer look

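In Esr1 probe set 1421244_at, wild-type array 4 read 3.56, apart from the other wild-type arrays at 3.75 to 3.77. The gap relative to the range of the 4 arrays was 0.876, above the 95% critical value of Dixon's test for 4 samples. The wild-type values of the 14 member probe sets were examined in this way, and chance exceeds it in about 5% of groups. The level lies far below the array medians, and the brighter Esr1 probe sets did not single out this array.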

How the results depend on the processing

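The counts of 0 member probe sets, 0 member genes and 0 list genes past the threshold stayed at 0 under every alternative run. These were eBayes without a trend, dim probe sets dropped, array weights, median centring, a further quantile normalization, sex as a covariate, each array left out, wild-type arrays 2 and 3 left out, and other choices of probe set. With the replicate number as a replicate block over the arrays numbered 1 to 3 the counts were also 0, and it changed no call. Samples of the same number correlated at 0.32, 0.077 and 0.18 in their deviations from group means, and those of unlike number at -0.30 to 0.16. Each knockout array correlated best with the wild-type array of its own number, but wild-type array 2 correlated best with knockout array 3 (0.16). Arrays of the same number were also alike in Xist level. Whether the numbers pair the samples cannot be told from these values. The count over all genes, 2 as reported, was 21 when wild-type array 1 was left out, 6 for wild-type array 2, 8 for knockout array 1, 7 with array weights and 1 with the mean of all probe sets. Of 915 differences recomputed for members and named genes, 892 kept their direction and side of the threshold, and 23 turned sign. With 1 array left out, differences ran from -0.25 to 0.097 for Tac2, from -0.0030 to 0.12 for Tacr3 1450278_at, from -0.025 to 0.066 for Oprk1 1451813_at, from -0.079 to 0.042 for Esr1 1421244_at, from -0.034 to 0.12 for Tac1 and from -0.025 to 0.14 for Tacr1. Without wild-type arrays 2 and 3, Oprk1 1451813_at was at -0.0026, Esr1 1421244_at at 0.027 and Tac1 at -0.051. With the mean of all probe sets, Ncoa2 was at 0.0040, Eed at -0.041, Gnao1 at 0.011 and Plcb1 at 0.039. With the most variable probe set, Ncoa2 was at 0.13, Igf1r at 0.052, Eed at -0.15, Gnao1 at 0.086 and Plcb1 at 0.12. The last 2 settings read other probe sets of the same genes. For the remaining reversals the cause was not tested. The values within arrays of like Xist level were added after the data were seen.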
